A study of Homo sapiens with 4 samples.

Results

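The nuclear genes for the protein subunits of the oxidative phosphorylation machinery were examined in M14 cells, an established human melanoma line. Members were the probe sets whose array annotation names a single gene with a symbol of the NDUFA, NDUFB, NDUFC, NDUFS, NDUFV, UQCR, ATP5, COX4I, COX5, COX6, COX7 or COX8 families, or SDHA to SDHD and CYC1. Assembly factors, pseudogenes, antisense and readthrough transcripts were left out. This rule gave 78 of 19775 named genes and 152 of 41091 probe sets with 1 symbol. By complex these were 33 genes of complex I, 3 of complex II (SDHA, SDHC and SDHD), 7 of complex III, 17 of complex IV and 18 of complex V.

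Each of 4 Affymetrix whole-genome arrays held RNA from a different combination of plasmid and culture, so there was 1 array a group and the number of arrays limits the precision of every value. The line labelled ARHGAP8 carried a pIRES2-eGFP plasmid with FLAG-tagged ARHGAP8, made from a splice variant that lacks an exon. The control line carried the plasmid without an insert. Both lines were stable transfectants selected with G418, sorted for green fluorescence and kept in G418, and 1 line of each was measured. Each was grown for 4 days, embedded in growth factor-reduced Matrigel (3D) or on collagen-coated plastic (2D). All 4 probe sets that name ARHGAP8 also name a readthrough gene and were under the floor defined below on every array, at signals of 4.02 to 14.8, so they give no check of the labels. The groups are called ARHGAP8 3D, ARHGAP8 2D, vector 3D and vector 2D.

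Oxidative phosphorylation takes place in the inner mitochondrial membrane. Complex I oxidises NADH, complex II oxidises succinate as part of the citric acid cycle, and both hand electrons through coenzyme Q to complex III, which reduces cytochrome c for complex IV, where oxygen is consumed. Complexes I, III and IV pump protons, and complex V, the ATP synthase, uses their return to make ATP. All complexes except complex II combine nuclear-encoded subunits with subunits encoded in mitochondrial DNA. In low oxygen, cells are known to direct pyruvate away from mitochondria and to exchange some complex IV subunits for other isoforms.

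Values are the authors' MAS5 signals, on a linear scale. Signals under the median of the table, 72.3, were set to that floor before log2 was taken. Of 8 melanoma marker genes named by a probe set, 7 were above the floor on all 4 arrays, among them MITF, MLANA, TYR and SOX10, while PMEL was under it on all 4. All 4 epithelial and both immune markers were under the floor on every array, with summed signals of the immune list running from 56.4 to 86.9. Of 4 fibroblast markers 3 were above the floor, with summed signals from 521 to 706, and of the pair of endothelial markers PECAM1 was, with sums from 302 to 369. The ARHGAP8 3D array stood apart in its control probe sets, with a median signal for 18S ribosomal RNA of 626, against 27.7 to 49.4 on the others. For ACTB the ratio of 3' to 5' probe set signals, which tracks RNA integrity, was 1.32 and 1.23 on the 3D arrays of the ARHGAP8 and vector lines, and 1.05 and 1.10 on their 2D arrays. For GAPDH it was 0.925 and 0.901 on the 3D arrays, and 0.899 and 0.874 on the 2D arrays.

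Most subunit genes were above the floor. Of the 78 genes, 74 were above the floor on all 4 arrays, with signals from 81.8 to 6599. The other 4 were under the floor on every array, at signals between 1.72 and 20.0. They were COX7A1, the heart and skeletal muscle isoform of a complex IV subunit, COX7B2 and COX8C, which are known mainly from testis, and ATP5MF, whose only probe set that names it alone did not read above the floor. These 4 have no ratio, and all counts below are over the 74.

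No subunit gene passed the test for culture or plasmid. The test was an additive model of culture and plasmid over 13239 genes fitted two-sided in limma, and a call needed a Benjamini-Hochberg adjusted p under 0.05. Only 1 degree of freedom is left for the residual, which mixes array noise, variation between the cultures and any interaction. The model's standard errors (SE), moderated by eBayes, draw mostly on other genes of like signal. They leave out variation between separately made lines. For culture, 0 of the 74 members passed in limma, against 6.99% of all genes, and the lowest adjusted p of a member was 0.0560. That share of all genes was 0% with no filter on low signals, 0.279% with the mean of a gene's probe sets and 3.21% with no intensity trend. At an unadjusted p under 0.05 there were 14 members, against 21% of all genes. Of these 12 members read higher in 3D and 2 lower, against 9.89% and 11.1% of all genes. For plasmid, 0 of 74 passed in limma, against 0.128% of all genes (0.068% higher and 0.0604% lower). At an unadjusted p under 0.05, 6 were higher in the ARHGAP8 line and 0 lower, against 3.77% and 4.37% of all genes and 8.14% in either direction. No single probe set of a member passed either.

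Most intervals lay within a 2-fold change. The 95% interval of the culture ratio, 3D over 2D averaged over the lines, lay within a 2-fold change in either direction for 72 of the 74 genes. That of the plasmid ratio, ARHGAP8 over vector averaged over the cultures, did so for all 74. The exceptions for culture were NDUFS7, with an interval of 0.16 to 1.03 on the log2 scale, and ATP5MC1, with -1.03 to -0.22. The SE of a ratio ran from 0.16 to 0.25.

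**Figure D1:**
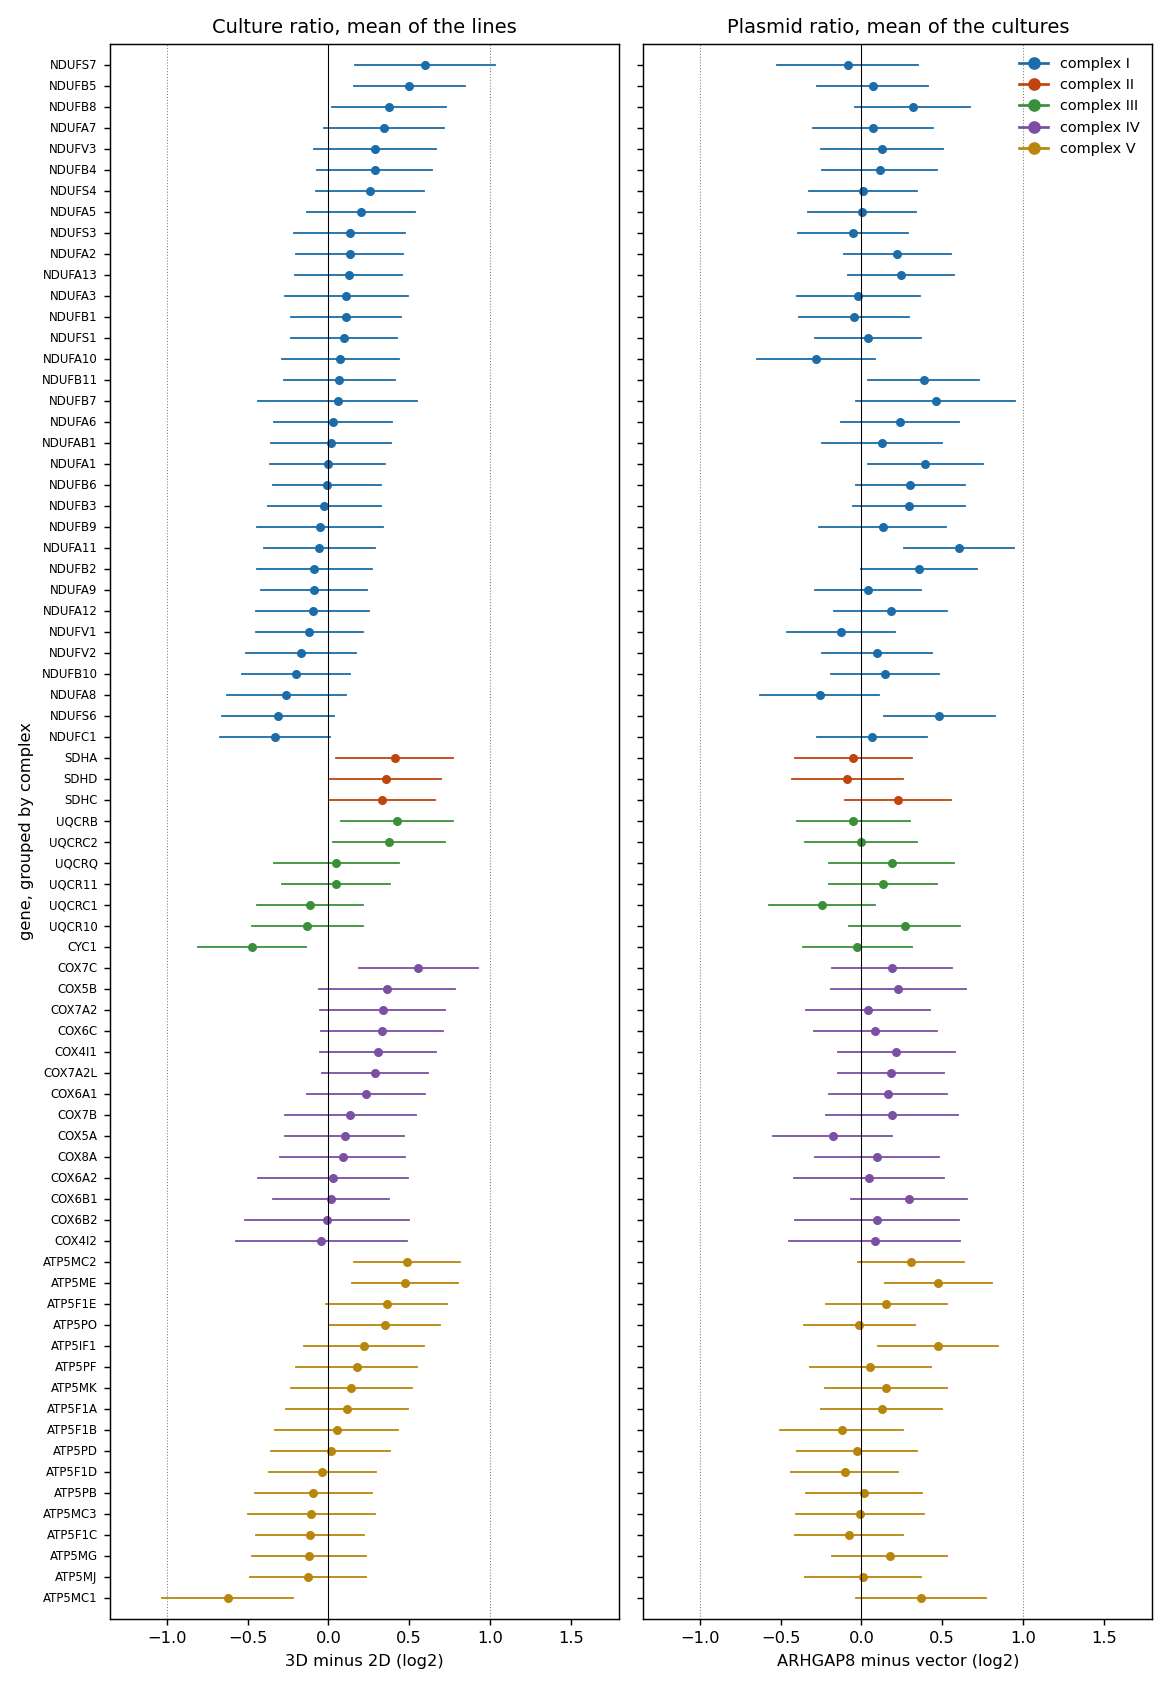
Log2 ratios of the 74 subunit genes from the additive model, grouped and coloured by complex. Points are the ratio of 3D over 2D (left panel) or of ARHGAP8 over vector (right panel), bars are 95% intervals from limma, and dotted lines mark a 2-fold change. Culture ratios run from -0.62 for ATP5MC1 to 0.60 for NDUFS7.

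Signals of the subunit genes were often highest on a single array. On the ARHGAP8 3D array 45 of the 74 genes had their highest signal, against 30.2% of all genes tested. On the ARHGAP8 2D, vector 3D and vector 2D arrays 7, 11 and 11 of them did, against 21.2%, 28.3% and 20.3%. The lowest signal lay on the ARHGAP8 3D, ARHGAP8 2D, vector 3D and vector 2D arrays in 8, 18, 27 and 21 genes, against 24.5%, 24.1%, 23.6% and 20.8% of all genes. The median subunit gene was 0.23 higher (log2) in 3D than in 2D in the ARHGAP8 line and 0.01 higher in the vector line, against 0.04 and 0.01 over all genes. It was 0.20 higher in the ARHGAP8 line than in the vector line in 3D and -0.01 in 2D.

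Without the ARHGAP8 3D array, 38 of 74 genes were higher in 3D than in 2D, all from the vector line, against 51.2% of all genes. In the ARHGAP8 line the count was 57 of 74, against 53.4%. In 3D 56 of 74 genes were higher in the ARHGAP8 line than in the vector line, against 50.3%, and in 2D 35 of 74 were, against 47.5%. In both cultures 28 were higher in the ARHGAP8 line and 11 lower, against 25.4% and 26.2% of all genes. The raised control signals named above lie on the same array, and their part in this shift was not tested. Most members, 66 of 74, lay in the top quartile of genes by signal, and the median 3D over 2D ratio of that quartile in the ARHGAP8 line was -0.07. The count of genes highest on that array was 44 of 74 after quantile normalization and 50 of 74 after cyclic loess.

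**Figure D2:**
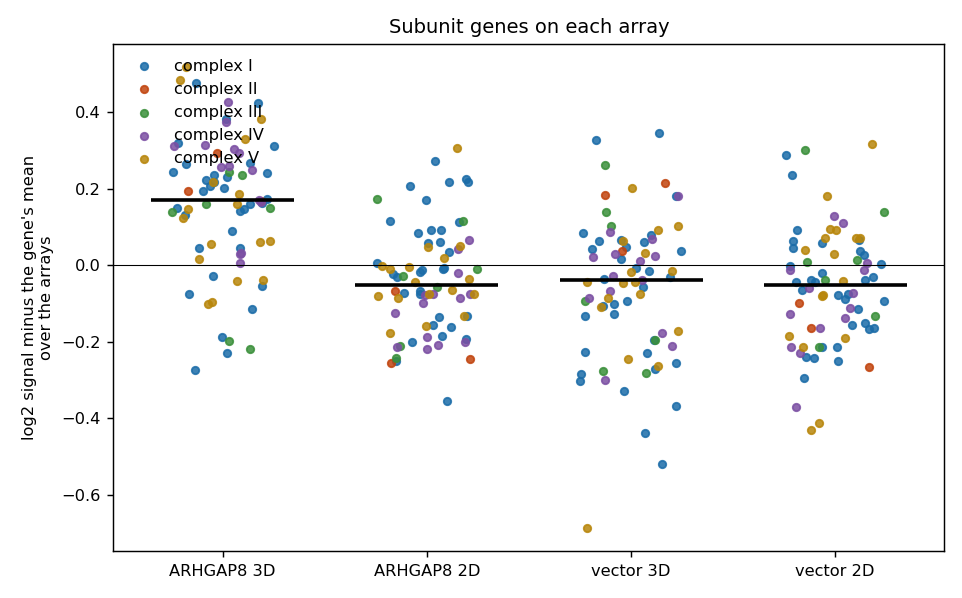
Log2 signal of each of the 74 subunit genes on each array, less that gene's own mean over the 4 arrays, coloured by complex, with black bars at the medians. The median is 0.17 on the ARHGAP8 3D array, and -0.05, -0.04 and -0.05 on the ARHGAP8 2D, vector 3D and vector 2D arrays.

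Promoters of subunit genes are known to carry sites for NRF1, for ETS-family factors such as GABP, and for YY1, which have been linked to their joint control. RefSeq promoter windows of 300 bases, 250 before the start site and 50 from it on (GRCh38.p14), were given for 66 of the 78 genes, in 79 windows. On either strand the NRF1 core GCATGCGC stood in 17.7% of these windows and in 3.05% of all 35116 windows. The longer NRF1 consensus, which contains this core, stood in 5.06% and 1.24%. The ETS core CCGGAAG stood in 25.3% and 10.3%, the YY1 core AAGATGGCG in 11.4% and 1.75%, and ACGTG, the core of the hypoxia element, in 24.1% and 21.4%. These matches are letters in a window and do not show binding.

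The windows of 4 members described below are printed 5' to 3' on the strand of the gene, with every match to these cores in capitals, on either strand. NDUFS7 had the highest culture ratio of all members, ATP5MC1 the lowest and ATP5MC2 the highest of complex V, and SDHD is a complex II member with the long NRF1 form. The NDUFS7 window lies at chr19:1383657-1383956 on the plus strand and ATP5MC1 at chr17:48892537-48892836 on the plus strand. The ATP5MC2 window, 1 of 3 for that gene, lies at chr12:53676034-53676333 on the minus strand, and SDHD at chr11:112086623-112086922 on the plus strand. Where a gene had several windows, the one matching the most kinds of core was printed. The ATP5MC2 window was thus picked for its matches, while the other genes had 1 window each.
NDUFS7: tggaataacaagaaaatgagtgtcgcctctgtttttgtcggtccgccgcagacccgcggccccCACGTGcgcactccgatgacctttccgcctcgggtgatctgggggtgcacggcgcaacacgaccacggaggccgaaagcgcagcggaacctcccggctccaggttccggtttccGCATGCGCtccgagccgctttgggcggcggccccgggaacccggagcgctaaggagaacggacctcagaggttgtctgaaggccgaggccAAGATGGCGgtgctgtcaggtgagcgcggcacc
ATP5MC1: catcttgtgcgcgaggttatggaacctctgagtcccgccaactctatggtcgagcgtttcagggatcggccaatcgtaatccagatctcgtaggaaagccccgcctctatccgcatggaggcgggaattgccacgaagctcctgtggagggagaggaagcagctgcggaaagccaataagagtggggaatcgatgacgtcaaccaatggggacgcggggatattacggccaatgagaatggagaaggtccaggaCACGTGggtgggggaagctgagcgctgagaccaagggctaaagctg
ATP5MC2: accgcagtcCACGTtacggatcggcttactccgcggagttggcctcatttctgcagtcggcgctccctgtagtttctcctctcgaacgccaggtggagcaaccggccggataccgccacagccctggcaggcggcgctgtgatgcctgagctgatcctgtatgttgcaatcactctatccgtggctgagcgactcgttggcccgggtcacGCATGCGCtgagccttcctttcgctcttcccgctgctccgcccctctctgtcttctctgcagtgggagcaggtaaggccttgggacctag
SDHD: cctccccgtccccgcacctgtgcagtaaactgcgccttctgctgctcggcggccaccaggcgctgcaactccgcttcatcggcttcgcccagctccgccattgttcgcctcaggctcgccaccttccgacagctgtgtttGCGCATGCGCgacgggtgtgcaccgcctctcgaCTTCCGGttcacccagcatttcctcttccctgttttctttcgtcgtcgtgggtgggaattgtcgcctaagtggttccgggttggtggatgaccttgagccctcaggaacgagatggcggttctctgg
The NDUFS7 window holds the short NRF1 core, the YY1 core and ACGTG in palindromic form, and the SDHD window holds the long NRF1 form and an ETS core. The ATP5MC1 window holds ACGTG alone of these cores, and the printed ATP5MC2 window holds ACGTG and the short NRF1 core.

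Complex I genes showed no common direction with culture. Of 33 genes 12 were higher in 3D in both lines, 6 were lower in both, and the rest differed in sign, against 34.1% and 28.9% of all genes for the first of these counts and the second. The median ratio of 3D over 2D was 0.16 in the ARHGAP8 line and -0.02 in the vector line.

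The highest complex I gene in 3D was NDUFS7, a core subunit that holds an iron-sulfur cluster. It had signals of 329 and 214 on the ARHGAP8 3D and 2D arrays, and of 344 and 231 on the vector 3D and 2D arrays. Both 3D arrays lay above both 2D arrays, and the lines nearly coincided within each culture. Its culture ratio over the 4 arrays was 0.60 ± 0.21 (± moderated SE, here and below), at an adjusted p of 0.0927 in limma. Its other probe set, much dimmer, read 0.16. NDUFB5, an accessory subunit of the membrane arm, had 2725 and 1834 in the ARHGAP8 line in 3D and 2D, and 2475 and 1837 in the vector line. It too was separated by culture alone, at 0.50 ± 0.17 and an adjusted p of 0.0728 in limma.

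The other core subunits of complex I had culture ratios of both signs. NDUFS1, the largest subunit, which carries iron-sulfur clusters, had 944 and 910 in ARHGAP8 3D and 2D and 945 and 860 in vector 3D and 2D. NDUFS3 had 1603 and 1261 in the ARHGAP8 line in 3D and 2D, and 1434 and 1516 in the vector line. NDUFV1, which binds NADH and flavin, had 1040 and 1233 in ARHGAP8 3D and 2D and 1240 and 1233 in vector 3D and 2D. For these genes and NDUFV2 culture ratios ran from -0.17 to 0.13, with adjusted p of at least 0.607 in limma. Cultures overlapped in NDUFS3 and NDUFV1, and NDUFV1 was lowest on the ARHGAP8 3D array.

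At the low end of complex I, NDUFC1, a small accessory subunit, had 1229 and 1335 in ARHGAP8 3D and 2D, against 1016 and 1476 in vector 3D and 2D. Both 3D arrays were below both 2D arrays, at a culture ratio of -0.33 ± 0.16 and an adjusted p of 0.256 in limma. NDUFS6, an accessory subunit that binds zinc, had 1106 and 1158 in ARHGAP8 3D and 2D, and 668 and 982 in vector 3D and 2D. Its vector 3D signal was the low one, and the ratios of 3D over 2D were -0.07 and -0.56 in the ARHGAP8 and vector lines. In 5 genes of the complex both 3D arrays lay below both 2D arrays and in 10 above, against 22.7% and 27.5% of all genes.

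Between the lines, complex I held the member with the highest plasmid ratio. NDUFA11, an accessory subunit of the membrane arm, had 1588 and 897 in ARHGAP8 3D and vector 3D, and 1417 and 1086 in ARHGAP8 2D and vector 2D. The ARHGAP8 arrays both lay above the vector arrays, at 0.60 ± 0.16 and an adjusted p of 0.170 in limma. A further probe set above the floor read 0.53. NDUFS6 followed at 0.48 ± 0.17, with an adjusted p of 0.345 in limma. At the other end NDUFA10 had 773 and 1188 in ARHGAP8 3D and vector 3D, and 928 and 893 in ARHGAP8 2D and vector 2D. Its plasmid ratio was -0.28 ± 0.17, with opposite signs in 3D and 2D. In 10 of 33 complex I genes both ARHGAP8 arrays lay above both vector arrays and in 1 below, against 12.7% and 14.1% of all genes.

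All 3 complex II members, each read from the probe set that represents it, were higher in 3D than in 2D in both lines. SDHB, also named in the rule, was not among the members and has no value here. SDHA, the flavin subunit where succinate is oxidised, had 530 and 391 in ARHGAP8 3D and 2D, and 537 and 413 in vector 3D and 2D. SDHC, a membrane anchor, had 1094 and 851 in ARHGAP8 3D and 2D, and 915 and 742 in vector 3D and 2D. SDHD, the other membrane anchor, had 2382 and 1774 in ARHGAP8 3D and 2D, and 2407 and 1981 in vector 3D and 2D. For each gene both 3D arrays lay above both 2D arrays. The median ratios of 3D over 2D were 0.42 in the ARHGAP8 line and 0.30 in the vector line, against 0.04 and 0.01 over all genes.

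None of the complex II genes passed the test. Culture ratios were 0.41 ± 0.17 for SDHA, 0.35 ± 0.16 for SDHD and 0.33 ± 0.16 for SDHC, with adjusted p of 0.176, 0.223 and 0.230 in limma. Their intervals ran from 0.05 to 0.77 for SDHA and from 0.01 to 0.70 for SDHD. The SDHA probe set is of the kind that may cross-hybridise, and SDHA has pseudogenes, so its signal is uncertain. SDHC is named by 7 probe sets, and with the mean over all of a gene's probe sets the complex II median was 0.19 in place of 0.35. Further SDHC probe sets above the floor read from 0.08 to 0.59, averaged over the lines. Only the highest of them, at 0.59 in each line, was higher in 3D in both lines. The others had opposite signs in the lines, such as 0.21 and -0.05, or -0.20 and 0.49, in the ARHGAP8 and vector lines.

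Complex III genes went both ways with culture. CYC1, the cytochrome c1 subunit, had 1394 and 1802 in ARHGAP8 3D and 2D, against 1320 and 1970 in vector 3D and 2D. Both 3D arrays lay below both 2D arrays, at -0.47 ± 0.16 and an adjusted p of 0.0814 in limma. UQCRB, a small subunit at the quinone-binding side, had 2618 and 2023 in ARHGAP8 3D and 2D, and 2810 and 2020 in vector 3D and 2D, at 0.42 ± 0.17. UQCRC2, a core protein, had 2580 and 1854 in ARHGAP8 3D and 2D, and 2414 and 1999 in vector 3D and 2D, at 0.37 ± 0.17. Adjusted p for UQCRB and UQCRC2 were 0.140 and 0.198 in limma, and all their other probe sets above the floor read above 0.

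The partner of UQCRC2 did not share its sign. UQCRC1, the other core protein, had 845 and 964 in ARHGAP8 3D and 2D, and 1056 and 1083 in vector 3D and 2D. The ARHGAP8 arrays were both below the vector arrays, at a plasmid ratio of -0.24 ± 0.16, the lowest of the complex, and an adjusted p of 0.788 in limma. The highest was UQCR10, a small subunit, at 0.27 ± 0.17, with 2020 and 1497 in ARHGAP8 3D and vector 3D, and 1972 and 1838 in ARHGAP8 2D and vector 2D. The remaining genes, UQCR11 and UQCRQ, had culture ratios of 0.05 each.

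In complex IV none of the 14 measured genes was lower in 3D in both lines, against 28.9% of all genes. Of the 14, 7 were higher in both, against 34.1%. The median ratio of 3D over 2D was 0.35 in the ARHGAP8 line and 0.10 in the vector line. COX7C, a small structural subunit, had 4338 and 2935 in ARHGAP8 3D and 2D, and 3787 and 2588 in vector 3D and 2D. The cultures did not overlap, and the ratio was 0.56 ± 0.18 with an adjusted p of 0.0628 in limma. Its other probe sets read 0.53 and 0.55, although probe sets of this gene may cross-hybridise. COX5B had 6599 and 4274 in ARHGAP8 3D and 2D, and 4688 and 4385 in vector 3D and 2D. There the difference lay almost wholly in the ARHGAP8 line, with ratios of 0.63 and 0.10.

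No isoform of complex IV passed the test. COX4I1, the general form of subunit 4, had 3487 and 2698 in ARHGAP8 3D and 2D, and 2870 and 2428 in vector 3D and 2D, at a culture ratio of 0.31 ± 0.17. COX4I2, its lung and hypoxia-inducible counterpart, had 184 and 154 in ARHGAP8 3D and 2D, and 142 and 179 in vector 3D and 2D. Its arrays overlapped between cultures, and its ratio was -0.04 ± 0.25, the lowest of the complex, with an interval of -0.57 to 0.49. COX6A1, the general form of subunit 6A, was at 0.23 ± 0.18, and COX6A2, the muscle form, lay between 81.8 and 88.5 on the 4 arrays, close to the floor. COX6B1 and the testis form COX6B2 were at 0.01 and -0.01, and COX7A2, the general counterpart of COX7A1, at 0.33 ± 0.18. COX7A2L, which takes part in joining complexes into supercomplexes, was at 0.29 ± 0.16, with both 3D arrays above both 2D arrays.

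Between the lines, complex IV differed by culture. In 3D the median ratio of ARHGAP8 over vector was 0.27, and in 2D it was -0.03. Of its 14 genes 11 had their highest signal on the ARHGAP8 3D array, against 30.2% of all genes. COX6B1 had the highest plasmid ratio, 0.29 ± 0.17, from signals of 1276 and 834 in ARHGAP8 3D and vector 3D, and of 1012 and 1031 in ARHGAP8 2D and vector 2D. COX5A had the lowest, -0.18 ± 0.18, and its other probe set reversed the sign of both its ratios when averaged in.

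The genes of complex V included both a low and a high extreme for culture, within 1 small family. The ring that turns with proton flow is built of subunit c, which ATP5MC1, ATP5MC2 and ATP5MC3 encode as the same mature protein behind different import sequences. ATP5MC1 had 475 and 562 in ARHGAP8 3D and 2D, and 283 and 567 in vector 3D and 2D. ATP5MC2 had 1511 and 1100 in ARHGAP8 3D and 2D, and 1246 and 872 in vector 3D and 2D. ATP5MC3 had 3885 and 3528 in ARHGAP8 3D and 2D, and 3296 and 4211 in vector 3D and 2D. In ATP5MC1 both 3D arrays were below both 2D arrays, in ATP5MC2 above them, and in ATP5MC3 the cultures overlapped.

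The ratio of ATP5MC1 was -0.62 ± 0.19, with an adjusted p of 0.0560 in limma, the lowest among the members. Its ratio was -0.24 in the ARHGAP8 line and -1.0 in the vector line, a size of 2-fold that 3.02% of all genes reached in the vector line and no other member reached with the probe set that represents it. After quantile normalization and cyclic loess it was -0.997 and -0.969, under that size. No member's representing probe set reached it for 3D over 2D in the ARHGAP8 line or for ARHGAP8 over vector in 3D or 2D, against 3.77%, 2.44% and 0.461% of all genes. Of 43 further probe sets above the floor on all arrays 4 did reach it in some ratio. One of COX5B read 1.61 for 3D over 2D in the ARHGAP8 line and 1.68 for ARHGAP8 over vector in 3D, and one of ATP5ME read 1.12 for 3D over 2D in the ARHGAP8 line. One of ATP5IF1 read 1.08 for ARHGAP8 over vector in 3D, and one of NDUFB10 read -1.25 for 3D over 2D in the vector line. ATP5MC2 stood at 0.49 ± 0.16 with an adjusted p of 0.0659 in limma, and at 0.46 and 0.52 in the ARHGAP8 and vector lines. Its other probe set, near the floor, read -0.18. ATP5MC3 stood at -0.11 ± 0.19, and its other probe sets read 0.03 and 0.08. ATP5MC1 and ATP5MC2 thus had opposite signs in each line, and their difference was not tested.

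**Figure D3:**
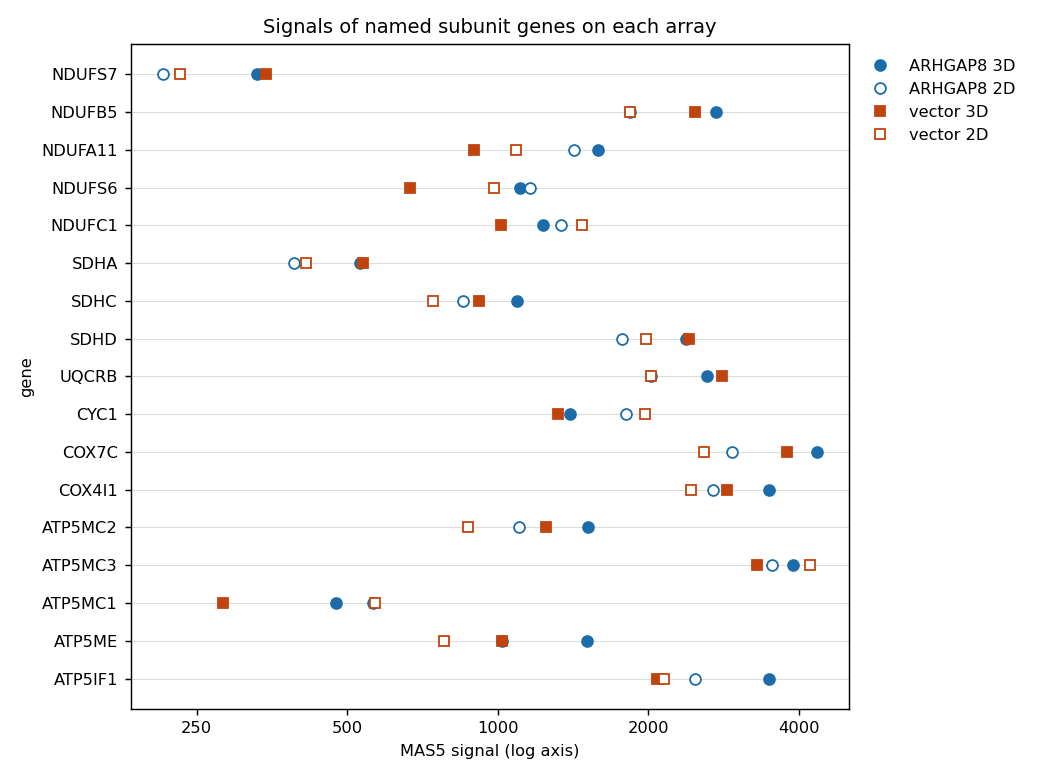
MAS5 signals of 17 named subunit genes on each of the 4 arrays, on a log axis, with filled symbols for 3D and open symbols for 2D. In SDHA, SDHC, SDHD, COX7C and ATP5MC2 both filled symbols lie to the right of both open ones, while in CYC1 and ATP5MC1 they lie to the left. Positions of different genes do not compare their transcript amounts.

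The subunits of the catalytic head of complex V differed in culture ratio. ATP5F1B, the catalytic beta subunit, had 3798 and 3696 in ARHGAP8 3D and 2D, and 4168 and 3987 in vector 3D and 2D, at a culture ratio of 0.05 ± 0.18. ATP5F1A, the alpha subunit, was at 0.12 ± 0.18 and ATP5F1C, the gamma subunit of the central stalk, at -0.11 ± 0.16. Adjusted p for these genes were at least 0.752 in limma, and their intervals together lie between -0.45 and 0.49. ATP5F1E, the epsilon subunit of the central stalk, was at 0.36 ± 0.18 with an adjusted p of 0.256 in limma, and ATP5F1D, the delta subunit, at -0.04 ± 0.16. The other ATP5F1D probe set, above the floor on all 4 arrays, read -0.37, from -0.89 in the ARHGAP8 line and 0.16 in the vector line.

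The highest plasmid ratios of complex V were those of ATP5ME and ATP5IF1. ATP5ME, a membrane subunit, had 1505 and 1020 in ARHGAP8 3D and 2D, and 1018 and 779 in vector 3D and 2D. It was higher with culture by 0.47 ± 0.16 and with plasmid by 0.48 ± 0.16, the highest plasmid ratio of complex V, at adjusted p of 0.0754 and 0.312 in limma. Its other probe set read 0.23 for plasmid, with opposite signs of 0.68 in 3D and -0.23 in 2D. Both its probe sets are of the class that may cross-hybridise. ATP5IF1, which encodes the inhibitor that blocks the reverse reaction, had 3492 and 2077 in ARHGAP8 3D and vector 3D, and 2476 and 2152 in ARHGAP8 2D and vector 2D. Its plasmid ratio was 0.48 ± 0.18 and its culture ratio 0.22 ± 0.18. Its other probe sets read -0.15 and -0.84 for culture, and 0.65 and -0.08 for plasmid, so that its probe sets disagree in sign for both.

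Across the members, agreement between probe sets was limited. Of 51 further probe sets above the floor on at least 2 arrays, in 33 genes, 34 had the culture sign of the probe set that represents the gene and 28 had its plasmid sign. Of the 74 genes 6 were represented by a probe set of the class that may cross-hybridise and 35 by one shared between transcripts.

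**Figure D4:**
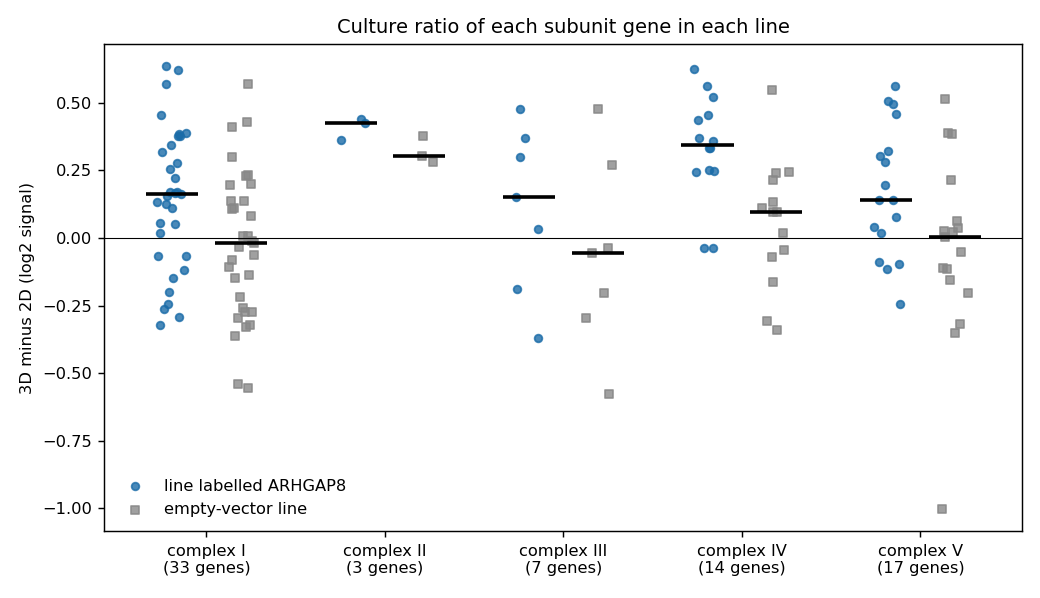
Ratio of 3D over 2D (log2) of each subunit gene in the line labelled ARHGAP8 (circles) and in the empty-vector line (squares), by complex, with black bars at the medians. Medians in the ARHGAP8 line lie above those in the vector line in each complex, at 0.42 against 0.30 in complex II and 0.35 against 0.10 in complex IV.

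The complexes can be set side by side. In the ARHGAP8 line the median ratio of 3D over 2D was 0.16, 0.42, 0.15, 0.35 and 0.14 in complexes I to V. In the vector line the medians were -0.02, 0.30, -0.05, 0.10 and 0.00. Complex II was the highest in both, on 3 genes without SDHB, and complex IV was next in both. Members of a complex are not replicates, and no test between complexes was made. Medians of the ratio of ARHGAP8 over vector were 0.18, -0.02, 0.10, 0.27 and 0.20 in 3D, and 0.05, -0.08, -0.07, -0.03 and -0.02 in 2D.

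Of 75 genes of the mitochondrial ribosome, which translates the subunits encoded in mitochondrial DNA, 6 fell in 3D and 1 rose, against 4.15% and 2.83% of all genes. Of the 20 genes called for culture in the lists described from here on, 0 passed with no filter on low signals and 3, BNIP3, BNIP3L and SLC2A3, with the mean of probe sets, in limma. MRPL38 fell by 1.09 ± 0.20 with an adjusted p of 0.00147 in limma, with 216 and 450 in ARHGAP8 3D and 2D, and 220 and 482 in vector 3D and 2D. MRPL55 fell by 0.93, although it read 75.2 on the ARHGAP8 3D array, near the floor. MRPL15 fell by 0.75 and MRPS7 by 0.67, while MRPS6 rose by 0.63. The median of the list was -0.16 in the ARHGAP8 line and -0.23 in the vector line. In 38 of 75 of these genes both 3D arrays lay below both 2D arrays, against 22.7% of all genes and 9 of the 74 subunits.

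Of 44 measured assembly factors 3 fell in 3D and 0 rose in limma, 6.82% of the list against 4.15% of all genes for those that fell. NDUFAF4, which helps to build complex I, fell by 0.86 ± 0.17, with 533 and 837 in ARHGAP8 3D and 2D, and 423 and 889 in vector 3D and 2D. COA7 and COA3, which serve complex IV, fell by 1.13 ± 0.26 and 0.54 ± 0.16, although COA7 read 72.4 on the vector 3D array, at the floor. Adjusted p for these were 0.00315, 0.0113 and 0.0418 in limma. The median of the list was -0.02 in the ARHGAP8 line, turning to 0.06 after quantile normalization and after cyclic loess, and -0.08 in the vector line.

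Among 12 regulators, PPRC1, a coactivator of the PGC-1 family, fell by 0.92 and TFB2M, a mitochondrial transcription factor, fell by 0.62 in 3D. TFB1M, a relative that modifies mitochondrial ribosomal RNA, rose by 0.67, and adjusted p were 0.0156, 0.0224 and 0.0214 in limma. These calls were 16.7% of the list lower and 8.33% higher, against 4.15% and 2.83% of all genes. The median of the list was -0.23 in the ARHGAP8 line and -0.36 in the vector line. In 8 of the 12 regulators both 3D arrays lay below both 2D arrays and in 2 above, against 22.7% and 27.5% of all genes. None of 15 citric acid cycle genes passed in limma, and their medians were -0.07 and -0.01 in the ARHGAP8 and vector lines. Of 14 carrier and coenzyme Q genes ETFB, a subunit of the electron transfer flavoprotein, rose by 0.89 with an adjusted p of 0.0104 in limma.

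Of 7 genes linked to the switch away from respiration in low oxygen, 3 rose in 3D and 0 fell, against 2.83% and 4.15% of all genes. PDK1, the kinase that keeps pyruvate out of the citric acid cycle, had 1523 and 676 in ARHGAP8 3D and 2D, and 1941 and 587 in vector 3D and 2D. It rose by 1.45 ± 0.17, with an adjusted p of 1.35e-05 in limma. The mitophagy genes BNIP3 and BNIP3L were the others that rose. HIGD1A, which binds complex IV, had the lowest ratio of the list, -0.43 ± 0.17 at an adjusted p of 0.146 in limma. HK2, a hexokinase bound to mitochondria, rose by 0.93, and SLC2A3, a glucose transporter, by 2.09. They were the 2 that passed among 18 genes of glycolysis, 11.1% of that list higher against 2.83% of all genes. COXFA4, a complex IV subunit formerly named NDUFA4, and COXFA4L2, its hypoxia-inducible relative, carry symbols outside the rule. Their culture ratios were 0.10 ± 0.16 and 0.24 ± 0.22, at adjusted p of 0.796 and 0.593 in limma, but COXFA4L2 was under the floor on the ARHGAP8 2D array, at 37.7, so that its ratio rests on the floor there, and read 78.1, 98.1 and 76.4 on the ARHGAP8 3D, vector 3D and vector 2D arrays.

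Transcripts of mitochondrial DNA and of the cytosolic ribosome shared the shift of the subunits on the ARHGAP8 3D array. All 7 genes of mitochondrial DNA with a probe set were highest on that array, and 50 of 52 cytosolic ribosomal protein genes were, against 30.2% of all genes. Their median ratios of 3D over 2D in the ARHGAP8 line were 0.34 and 0.37, against 0.23 for the subunits. After quantile normalization these became 0.02 and 0.07, and that of the subunits 0.18. After cyclic loess they were 0.29 and 0.33, and that of the subunits 0.24. Of the other lists, 9 of 18 glycolysis genes, 18 of 75 mitochondrial ribosome genes, 13 of 44 assembly factors, 2 of 15 citric acid cycle genes, 2 of 12 regulators, 1 of 14 carrier and coenzyme Q genes and 1 of 7 genes of the low-oxygen list were highest on that array.

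**Figure D5:**
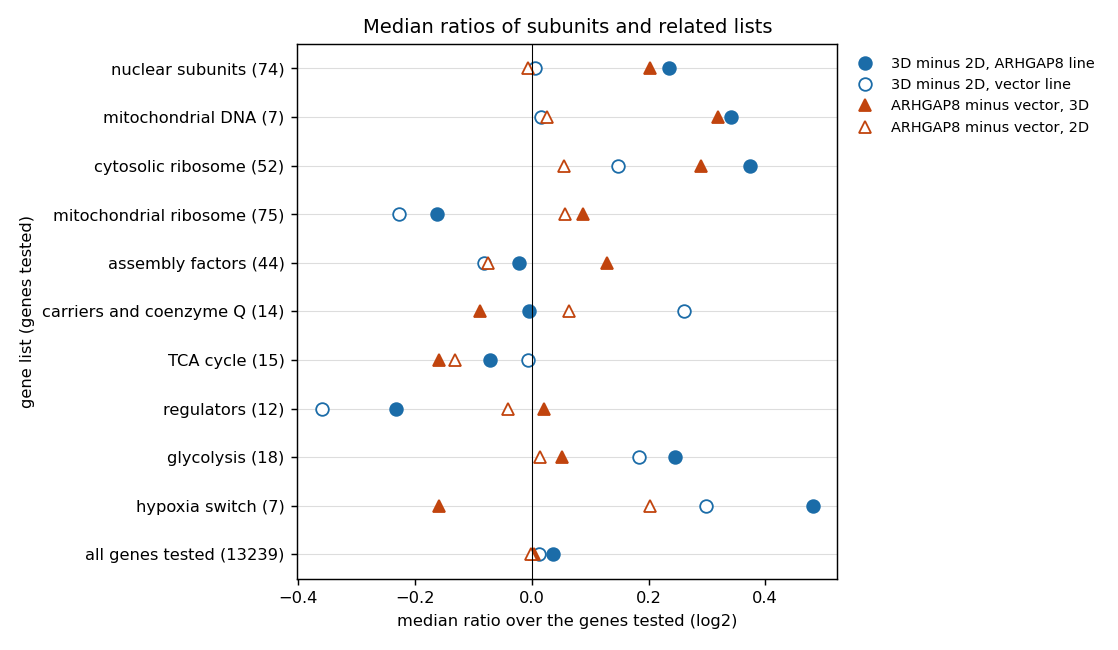
Median log2 ratios of the nuclear subunit genes, of related gene lists and of all genes tested, with the number of genes in brackets. Circles are 3D over 2D in the ARHGAP8 line (filled) and the vector line (open), and triangles are ARHGAP8 over vector in 3D (filled) and 2D (open). The subunits read 0.23, 0.01, 0.20 and -0.01 in that order, and the mitochondrial ribosome -0.16, -0.23, 0.09 and 0.06.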

How the data were processed

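The deposited table holds 1 signal intensity per probe set and array, 54675 in all with 62 control probe sets, which the authors produced with MAS5, per the submitters' processing notes. The version is not given in the sources used here. A 2% trimmed mean of the deposited values was 150.0 on each array. Signals were scaled to a common trimmed mean, floored at 72.3 and taken to log2 in R 4.3.3. Symbols were updated through RefSeq gene identifiers for 41037 of 41091 probe sets with 1 symbol. A gene was represented by its probe set with the highest mean, and 13239 genes above the floor on at least 2 arrays were tested in limma 3.58.1 with an intensity trend. Replicate cultures per group were not measured, so array noise, variation between cultures and any interaction cannot be told apart in the residual. The p-values do not cover variation between separately made lines.

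The members, lists, tests and alternatives were chosen with earlier results of these data known. Named genes were members past the test, the extremes of each complex among those above the floor on all 4 arrays, and a fixed set of isoforms and core subunits. Other genes of complex I, complex III, complex IV and complex V that are named (NDUFB5, NDUFS6, UQCR11, UQCRQ, COX5B, NDUFA6, NDUFB7, NDUFB10, ATP5F1E, ATP5F1D), and HIGD1A, were chosen after their values were seen. In related lists at most 5 called genes were named. Genes of mitochondrial DNA were taken by chromosome, since the annotation gives them no MT- prefix. Alternatives were quantile and cyclic loess normalization, other floors and filters, the mean of probe sets, probe sets tested singly, no intensity trend, and leaving out each array.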

Additional observations from a re-analysis of the deposited data

Results flagged for a closer look

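In 5 subunit genes the ratio of 3D over 2D was at least 0.25 (log2) in each line and of opposite sign, a difference that was not tested. The difference between the lines' ratios, ARHGAP8 less vector, was 0.71 for NDUFA6, 0.66 for NDUFB7, 0.64 for COX6B1, 0.59 for COX4I2 and -0.68 for NDUFA10. NDUFA6, an accessory subunit of complex I, had signals of 1627 and 1247 in ARHGAP8 3D and 2D, and 1076 and 1353 in vector 3D and 2D. The other NDUFA6 probe set, also above the floor on all 4 arrays, read 0.05 in the ARHGAP8 line, under that size, and -0.72 in the vector line. NDUFB7 had 304 and 232 in ARHGAP8 3D and 2D, and 175 and 212 in vector 3D and 2D. Its other probe set, above the floor on all 4 arrays, did not show opposite signs, at 0.93 in the ARHGAP8 line and 0.34 in the vector line. In 31 of the 74 members the lines had opposite signs of any size. Of the others, 32 were higher in 3D in both lines and 11 lower in both, against 34.1% and 28.9% of all genes. How many of all genes had opposite signs of at least 0.25 was not counted. Outside the genes compared, the control probe sets of 18S ribosomal RNA had a median signal of 626 on the ARHGAP8 3D array.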

How the results depend on the processing

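Counts of members called were 0 under all alternatives run for culture and plasmid except 1: with genes above the floor on all 4 arrays alone, which tests 11201 genes, 2 members passed for culture in limma, COX7C at 0.56 and ATP5MC1 at -0.62. The median culture ratio of complex II was 0.19 with the mean of probe sets. After quantile normalization the median ratio of 3D over 2D in the ARHGAP8 line was 0.04 for complex V and 0.24 for complex IV, that of the vector line 0.04 for complex IV, the median of ARHGAP8 over vector in 3D 0.10 for complex V, and the median culture ratio of complex III -0.05. Of the 20 genes of related lists called for culture, 13 passed after quantile normalization and 13 after cyclic loess, 9 with no intensity trend, 3 with the mean of probe sets and 0 with no filter, in limma. Leaving out 1 array leaves no residual degree of freedom and gives values without a test. The median culture ratio then ran from 0.01 to 0.23 and the median plasmid ratio from -0.01 to 0.20.

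No named member that was called reversed, since none was called. Signs turned for culture after quantile normalization in ATP5F1B (-0.087), COX6A2 (-0.073) and COX8A (-0.049), and after cyclic loess in COX6A2 (-0.087). With the mean of probe sets they turned for culture in ATP5IF1 (-0.26) and COX5A (-0.13), and for plasmid in COX5A (0.052), ATP5F1C (0.0076), ATP5MC3 (0.022), NDUFS7 (0.11), SDHC (-0.030), UQCRB (0.024) and UQCRC2 (0.011). COX7A2 turned for plasmid after quantile normalization (-0.028) and cyclic loess (-0.020). The cause was not tested. Moving NDUFA4 and NDUFA4L2 between complexes was not run, as their present symbols are outside the rule. No paired analysis was possible because the labels give no replicate numbers and each group holds 1 array. The additive model already compares the cultures within each line. The floor limits the 4 unmeasured members and COX6A2.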

Other observations

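Some subunits are named by a probe set together with another gene and were left out of the counts. The probe set of UQCRH, shared with its near-copy UQCRHL, had signals of 6011 and 4261 in ARHGAP8 3D and 2D, and 4643 and 3719 in vector 3D and 2D, with both 3D arrays above both 2D arrays. The probe set of ATP5MF, shared with an antisense transcript, had 2653 and 2177 in ARHGAP8 3D and 2D, and 2020 and 2183 in vector 3D and 2D. Probe sets of NDUFS8, shared with microRNA genes, went both ways, from -0.19 to 0.74 in the ARHGAP8 line and from -0.19 to 0.94 in the vector line. The brighter probe set of NDUFC2, shared with a readthrough gene, was lower in 3D in both lines. It had 2646 and 2961 in ARHGAP8 3D and 2D, and 2319 and 3078 in vector 3D and 2D. The dimmer one read 0.63 and -0.02 in the ARHGAP8 and vector lines, and that of NDUFS5, shared with RPL10, 0.03 and -0.11.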
